A study of Mus musculus with 9 samples.

Results

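The aminoacyl-tRNA synthetases of the mouse were followed in thymocytes with activated β-catenin, from normal cells to thymic tumours. The family was taken as 36 listed genes, 20 for the cytosolic enzymes and 16 for the mitochondrial enzymes. Each gene was read through its brightest probe set that names that gene alone. Such a probe set was found for 35 of the 36 genes, all of which passed the filter on dim signals, so that 19 cytosolic and 16 mitochondrial genes stood among the 11644 genes tested. Dars, for the cytosolic aspartyl enzyme, had no probe set in the annotation used and was not analysed here.

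Expression was read on 9 arrays, each with thymus RNA of a different C57Bl/6 mouse. The tumour group held 4 thymic tumours (tumours 1 to 4) of sick R26NC/NC CD4Cre+ mice aged 28, 26, 23 and 21 weeks, taken whole with at least 95% CD4+CD8+ cells. The pre-transformed group held CD4+CD8+ double-positive (DP) thymocytes of 3 R26NC/NC CD4Cre+ mice aged 6 weeks, and the control group those of 2 R26NC/NC CD4Cre- mice of that age, in each case sorted to a purity above 98%. All 3 groups thus carried the R26NC/NC alleles, which the labels link to active β-catenin (R26-βcat), and the CD4Cre transgene was absent in controls alone. Since the tumours came from older mice, were not sorted, and were labelled from 2.5 µg RNA by the standard protocol where sorted cells gave 0.1 µg to an amplification kit, transformation, age, sorting and labelling cannot be told apart in any tumour comparison.

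An aminoacyl-tRNA synthetase joins an amino acid to the tRNA that carries its anticodon, the step that sets which amino acid a codon yields in translation. Nuclear genes encode 2 sets, one for cytosolic ribosomes and one for the ribosomes of mitochondria, and Gars and Kars supply both compartments from the same gene. Several cytosolic enzymes sit in a multisynthetase complex around scaffold proteins. A further layer of control is the amino acid response, in which the transcription factor ATF4 raises many synthetase genes, together with genes for the synthesis and import of amino acids, when charged tRNA runs short. Thymocytes at the DP stage are mostly small resting cells, and Cre under Cd4 control acts in T-lineage cells from about that stage on.

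Values are MAS5 signals on a linear scale in which each array has a trimmed mean of 100, and changes are differences of mean log2 signals with the standard error (SE) of the fit. A gene was called at an adjusted p under 0.05 (limma, Benjamini-Hochberg over all 11644 genes). Median signals were 10.7 to 15.2 on tumour arrays and 9.9 to 11.8 on the arrays of sorted cells. A gene was taken as dim in a group where each array read below its own 65th percentile, which lay between 28.5 and 44.6. The log2 ratio of the 3′ to the 5′ β-actin probe set, a sign of RNA quality, was 0.544 to 1.144 in tumours. It was 0.198 to 0.348 in pre-transformed cells and 0.243 to 0.263 in controls. The same ratio for Gapdh overlapped between groups. It was −0.526 to −0.102 in tumours, −0.336 to −0.011 in pre-transformed cells and −0.269 to −0.208 in controls. The part of RNA quality in the results below was not tested. Of 11 tested DP marker genes 10 were lower in tumours than in pre-transformed cells, where 31.0% of all genes were lower. The exception, Cd4, was not called there (log2 change 0.31, adjusted p = 0.194) and was higher than in controls (0.77, adjusted p = 0.0158). Summed signals of the DP markers were 13444 to 17361 in tumours, 32184 to 34426 in pre-transformed cells and 30442 to 32570 in controls. Ptcra, for the pre-TCR α chain, was the DP marker that was dim in tumours.

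Tumours and pre-transformed cells carry the same genotype and were compared to ask what sets the transformed cells apart. The cytosolic synthetases were higher in tumours nearly as a class. Of 19 genes, 16 rose and 0 fell, against 23.9% of all genes tested that rose and 31.0% that fell. The median log2 change of the 19 was 1.09, where that of all genes was −0.12. Of the 16 mitochondrial genes 3 rose (18.8%), 4 fell (25.0%) and 9 were not called, both shares being below those of all genes. The median log2 change of the 16 was 0.21, and it turned to −0.04 with every array centred on its median. In a bulk sample a change in the mix of cells and a change of RNA within a cell cannot be told apart, here or in the results that follow.

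**Figure D1:**
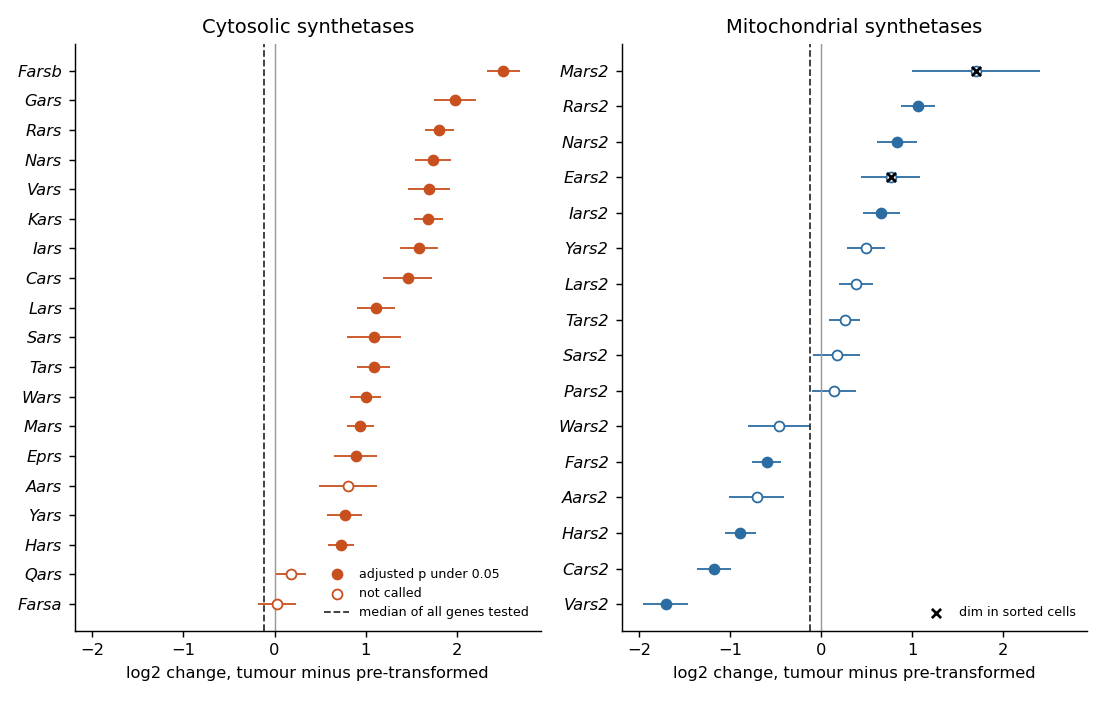
Log2 change of each synthetase gene in tumours (n = 4) minus pre-transformed cells (n = 3), with the standard error of the fit as bars, cytosolic genes on the left and mitochondrial genes on the right. Filled points passed an adjusted p of 0.05, and the dashed line is the median of all genes tested at −0.12. All 19 cytosolic points lie right of 0, and the mitochondrial points run from −1.71 for Vars2 to 1.06 for Rars2, leaving out Mars2 and Ears2, whose crosses mark genes dim in both groups of sorted cells.

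The largest rise was that of Farsb, which encodes the β subunit of the cytosolic phenylalanyl enzyme. It read 1259.8, 1607.3, 1013.0 and 1100.0 in tumours 1 to 4, against 214.3, 217.9 and 214.5 in pre-transformed cells. Each tumour was far above each pre-transformed array, and the log2 change was 2.51 ± 0.18 SE, or 5.69-fold (adjusted p = 9.24e-06). The probe set of Farsb carries the suffix of sets that can bind related transcripts, and the other 3 Farsb sets changed by 1.60 to 2.05.

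Farsa, which encodes the α subunit of the same enzyme, was not called. Its signals were 242.4, 212.3, 303.6 and 173.0 in tumours and 221.4, 230.7 and 217.6 in pre-transformed cells, so that the groups overlapped. The log2 change of Farsa was 0.03 ± 0.21 SE (adjusted p = 0.909), and the changes of Farsb and Farsa differed by 2.48. Within each array the log2 ratio of Farsb to Farsa, set to a mean of 0 in controls because the levels of different probe sets cannot be compared, was 2.30, 2.84, 1.66 and 2.59 in tumours, against −0.12, −0.16 and −0.10 in pre-transformed cells. It was higher on every tumour array than on every array of sorted cells. The 3 other probe sets of Farsa, all dim in tumours, had differences of −2.03 to −1.41. The mean over its sets was lower in tumours (log2 change −1.29, adjusted p = 0.0119, with 0.0119 to 1.0 over the alternatives).

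Gars, for the glycyl enzyme of cytosol and mitochondria, read 1181.5, 2115.3, 1077.6 and 1255.4 in tumours, against 382.1, 286.1 and 372.1 in pre-transformed cells. Tumour 2 was the highest and no values overlapped (log2 change 1.98 ± 0.23 SE, 3.94-fold, adjusted p = 8.48e-05). Kars, for the lysyl enzyme that likewise serves both compartments, read 1470.2, 1374.6, 1057.3 and 1036.7 in tumours, against 366.2, 402.5 and 369.4 in pre-transformed cells. Its tumours lay close together and well above the sorted cells (log2 change 1.69 ± 0.16 SE, 3.22-fold, adjusted p = 3.05e-05).

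Rars, for the arginyl enzyme, read 1370.7, 1275.2, 1033.0 and 1046.3 in tumours, against 304.2, 387.8 and 316.3 in pre-transformed thymocytes (log2 change 1.81 ± 0.16 SE, 3.51-fold, adjusted p = 2.45e-05). Nars, for the asparaginyl enzyme, read 1299.4, 1918.1, 1081.4 and 1088.2 in tumours, against 378.2, 378.8 and 422.4 in pre-transformed thymocytes (log2 change 1.74 ± 0.20 SE, 3.33-fold, adjusted p = 8.23e-05). Vars, for the valyl enzyme, read 312.7, 290.1, 450.1 and 263.6 in tumours, against 99.4, 102.5 and 95.1 in pre-transformed thymocytes (log2 change 1.70 ± 0.23 SE, 3.25-fold, adjusted p = 0.000235). Groups did not overlap for any of these 3 genes, but tumour 2 was highest for Nars alone and tumour 3 for Vars.

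The other called cytosolic genes rose by less. Iars, for the isoleucyl enzyme, changed by 1.59 (adjusted p = 0.000185), though a second probe set of the gene gave 0.65 (adjusted p = 0.0519, with 6.16e-05 to 0.0519 over the alternatives). Cars, for the cysteinyl enzyme, changed by 1.46 ± 0.27 SE (adjusted p = 0.00137). Lars (leucyl), Sars (seryl), Tars (threonyl) and Wars (tryptophanyl) changed by 1.11, 1.09, 1.09 and 1.00. The smallest rises were those of Mars (methionyl, 0.94), Eprs (0.89), which encodes the joined glutamyl and prolyl enzymes, Yars (tyrosyl, 0.77) and Hars (histidyl, 0.73). With every array centred on its median, Eprs, Sars and Yars were no longer called (adjusted p = 0.103, 0.0775 and 0.121, each the highest among the alternatives of its gene), which left 13 cytosolic genes higher and 0 lower.

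Aars, for the alanyl enzyme, read 311.1, 897.3, 465.9 and 316.5 in tumours, against 248.6, 259.3 and 260.4 in pre-transformed cells. All tumours were above the sorted cells, but tumour 2 stood far from the other tumours, and the gene missed the threshold (log2 change 0.81 ± 0.32 SE, adjusted p = 0.0541). Without tumour 2 the change of Aars was smaller but called (0.48, adjusted p = 0.0444), and over the alternatives its adjusted p ran from 0.0177 to 0.253. Qars, for the glutaminyl enzyme, read 841.0, 647.3, 774.6 and 525.4 in tumours, against 590.3, 603.9 and 618.9 in pre-transformed cells. Its groups overlapped (log2 change 0.18 ± 0.17 SE, adjusted p = 0.371), and its 3 other probe sets ran from −1.64 to 0.65.

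Genes that rose were found inside and outside the complex and in both structural classes. Of the 7 tested enzymes of the multisynthetase complex 6 were called (median log2 change 1.11), with Qars the exception, and of the 12 outside it 10 were called (median 1.09), with Aars and Farsa the exceptions. The class I enzymes, whose active site is a Rossmann fold, had 8 of 9 called (median 1.11), and the class II enzymes 7 of 9 (median 1.09), again against 23.9% of all genes. Eprs, which holds a domain of each class, was counted in neither. All 3 scaffold genes of the complex rose: Aimp2 by 1.99, Eef1e1 by 1.49 and Aimp1 by 1.05. Aimp2 read 647.4, 637.1, 510.8 and 431.5 in tumours, against 119.2, 156.2 and 142.4 in pre-transformed cells (adjusted p = 3.17e-05).

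Among the mitochondrial enzymes, Vars2, for the valyl enzyme, fell most. It read 59.2, 48.4, 97.9 and 86.6 in tumours, against 237.4, 219.5 and 233.6 in pre-transformed cells. Every tumour was below every sorted array (log2 change −1.71 ± 0.25 SE, adjusted p = 0.000308), and the gene's other probe set gave −3.57. Cars2, for the cysteinyl enzyme, read 72.4, 77.2, 69.2 and 54.2 in tumours, against 159.2, 158.1 and 142.4 in pre-transformed cells. The 4 tumours were close together and below the sorted cells (log2 change −1.18 ± 0.19 SE, adjusted p = 0.00053). A second probe set of Cars2 gave −0.49, and its tumours overlapped the pre-transformed cells. With the mean over its sets Cars2 was not called (log2 change −0.79, adjusted p = 0.0545, with 0.000306 to 0.0545 over the alternatives).

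Hars2, for the histidyl enzyme, read 109.2, 108.1, 85.9 and 107.5 in tumours, against 207.0, 188.2 and 173.3 in pre-transformed thymocytes (log2 change −0.89 ± 0.17 SE, adjusted p = 0.0014). Fars2, for the phenylalanyl enzyme, which in mitochondria is a single chain, read 112.9, 96.3, 112.1 and 112.6 in tumours, against 157.6, 150.7 and 185.4 in pre-transformed cells. All tumours were lower (log2 change −0.60 ± 0.16 SE, adjusted p = 0.0101), but the call was lost without pre-transformed 3 (adjusted p = 0.0591, with 0.00408 to 0.35 over the alternatives). A second probe set of Fars2, dim in pre-transformed cells and controls, gave 1.04.

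The called rises in the mitochondrial set were Rars2, Nars2 and Iars2. Rars2, for the arginyl enzyme, read 315.4, 256.6, 203.0 and 238.1 in tumours, against 112.0, 116.8 and 130.8 in pre-transformed cells, with no overlap (log2 change 1.06 ± 0.19 SE, 2.09-fold, adjusted p = 0.000934). Nars2, for the asparaginyl enzyme, read 139.6, 117.1, 93.5 and 89.8 in tumours, against 64.8, 57.8 and 60.8 in pre-transformed cells, again with no overlap (log2 change 0.83 ± 0.22 SE, adjusted p = 0.00898). Iars2, for the isoleucyl enzyme, changed by 0.66 ± 0.20 SE (adjusted p = 0.0174), a call lost without pre-transformed 2 (adjusted p = 0.0659, with 0.00166 to 0.228 over the alternatives). Median centring ended the calls of Iars2 and Nars2.

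The 9 mitochondrial genes that were not called covered both directions. The log2 change was −0.71 for Aars2 (alanyl, adjusted p = 0.0658) and −0.46 for Wars2 (tryptophanyl). Yars2 (tyrosyl) had 0.49, Lars2 (leucyl) 0.38, Tars2 (threonyl) 0.26, Sars2 (seryl) 0.17 and Pars2 (prolyl) 0.14. Mars2, for the methionyl enzyme, was dim on all arrays, with 10.7, 26.4, 8.4 and 20.1 in tumours, against 1.5, 7.8 and 8.0 in pre-transformed cells, and no fold is given for it. Ears2, for the glutamyl enzyme, was dim in pre-transformed cells and controls, so no size is given for it either. Second probe sets of Lars2 and Yars2 also read higher in tumours, but were dim in pre-transformed cells and controls, so no size is given for them. The second probe set of Tars2 was not dim and gave 0.81, with no overlap. With the mean over its sets Tars2 was called higher (log2 change 0.53, adjusted p = 0.0321, with 0.0321 to 0.995 over the alternatives). The counts of this class moved with the scaling, with 7 higher and 3 lower after quantile normalization and 1 higher and 5 lower with arrays centred on their medians.

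**Figure D2:**
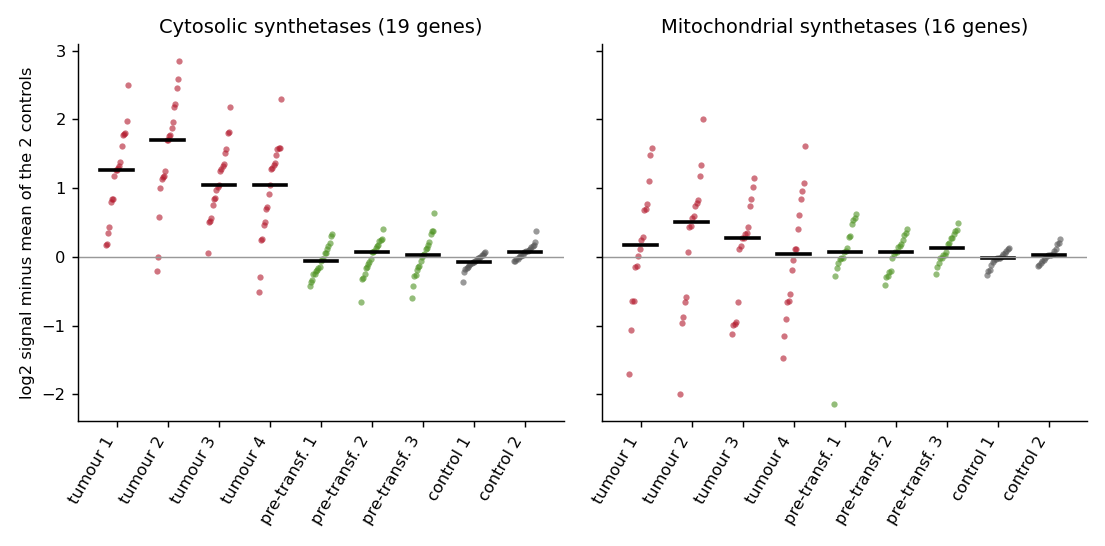
Log2 signal of each synthetase gene minus its mean over the 2 controls, for every array, with tumours on the left, pre-transformed cells next and controls on the right. Each point is a gene and each bar is the median of the class on that array. The cytosolic medians of the 4 tumours lie between 1.04 and 1.70 and those of pre-transformed cells between −0.06 and 0.07, while the mitochondrial medians stay between 0.04 and 0.51 in tumours.

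When the cytosolic enzyme of each amino acid was set beside its mitochondrial partner, the cytosolic change was the larger in 16 of 17 pairs. The pairs, 17 in all, hold 32 of the 35 genes, since Gars, Kars and Qars have no listed partner, and Eprs and Fars2 each serve 2 pairs. The exception was the methionine pair, where Mars (0.94) as measured changed by less than the dim Mars2. Leaving out the pairs with Mars2 and Ears2, which were dim in sorted cells, the cytosolic gene had the higher log2 change in 15 of 15 pairs. This choice thus removed the pair that went the other way. Among the 15, the log2 ratio of cytosolic to mitochondrial signal overlapped between tumours and pre-transformed cells for Eprs with Pars2 and for Yars with Yars2. The choice of probe set mattered here: with the mean over all sets of a gene, 11 of 15 pairs had this order, and the pairs led by Farsa, Iars, Lars and Yars did not. With probe sets of an x or s suffix left out, 14 of 15 pairs had it, and Iars with Iars2 did not.

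**Figure D3:**
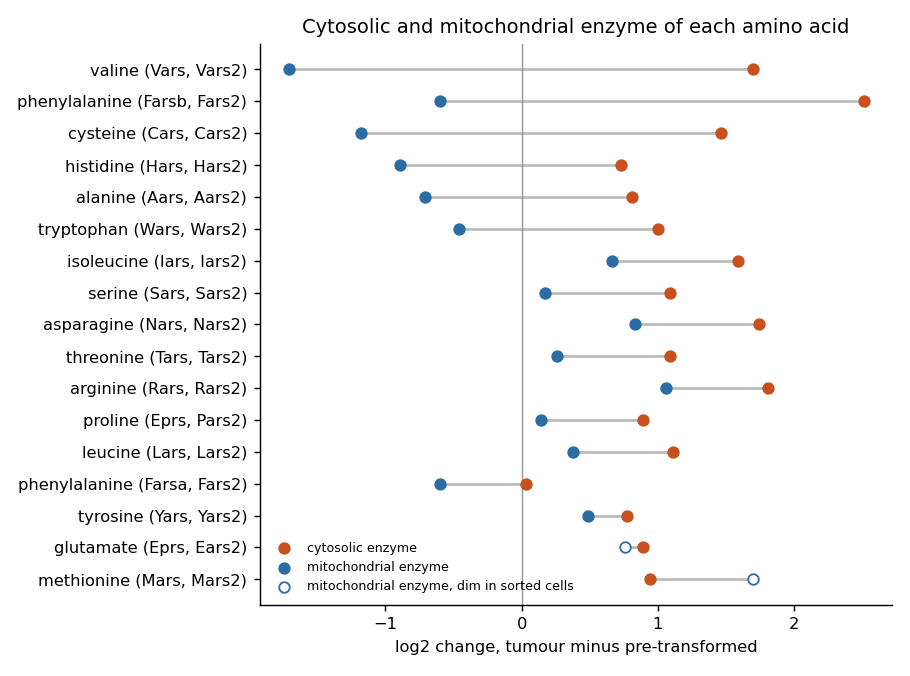
Log2 change in tumours minus pre-transformed cells for the cytosolic and the mitochondrial enzyme of each amino acid, ordered by their difference, which is greatest for valine at 3.41. In 6 amino acids the mitochondrial change lies below 0, and the open points mark Ears2 and Mars2, which were dim in sorted cells.

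The valine pair lay furthest apart. Vars and Vars2 lie on chromosome 17 with 639 kb between them, and their changes of 1.70 and −1.71 differed by 3.41. The cysteine pair differed by 2.64 and Farsb and Fars2 by 3.11. Hars and Hars2 are immediate neighbours on chromosome 18, read from opposite strands, and their annotated transcripts share 4 bases at their starts. Hars rose while Hars2 fell. Hars read 1502.7, 1248.3, 1410.9 and 1354.2 in tumours, against 751.9, 983.6 and 766.0 in pre-transformed thymocytes (log2 change 0.73 ± 0.14 SE, adjusted p = 0.00133), so that the changes of the neighbours differed by 1.62 in opposite directions. The other probe sets of Hars and Hars2 gave 0.51 and −0.65.

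**Figure D4:**
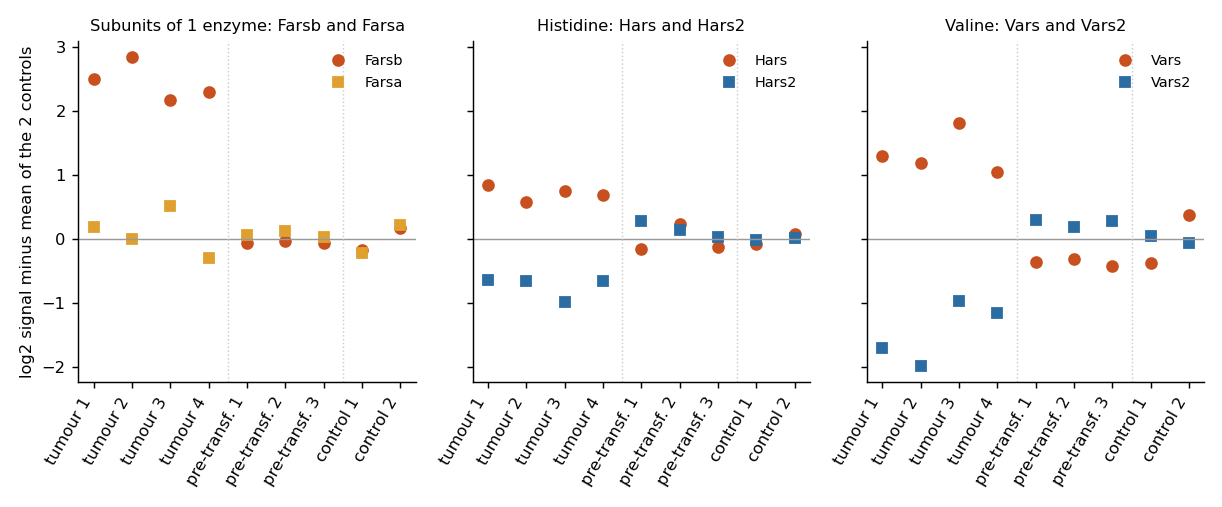
Log2 signal minus the mean of the 2 controls on every array for 3 pairs of genes, tumours on the left, then pre-transformed cells and controls. In each panel the gene drawn as circles is higher in tumours, and the gene drawn as squares is lower (Hars2, Vars2) or was not called (Farsa).

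The tumours differed among themselves in the synthetases that are known targets of ATF4. Aars, Cars, Eprs, Gars, Iars, Lars, Mars, Nars, Sars, Tars, Wars and Yars were taken as such targets from general knowledge, and tumour 2 was singled out after the values were seen. Tumour 2 was the highest of the 4 tumours for 11 of these 12 genes (91.7%), with Wars the exception, where it was the highest for 24.5% of all genes tested. Of the 7 other cytosolic genes it was the highest for 1, Farsb. Tumour 2 exceeded the mean of the other tumours by a median log2 difference of 0.74 over the 12 genes and of −0.11 over the 7. The order was the same with quantile normalization (11 of 12 and 1 of 7). Median centring, which made tumour 2 the highest for 54.5% of all genes, gave 12 of 12 and 4 of 7. The mitochondrial count was 6 of 16 with quantile normalization and 13 of 16 with median centring.

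Aars showed the widest gap, with a signal in tumour 2 that was 2.51 times the mean of the others. Cars read 317.1 in tumour 2, against 180.2, 150.4 and 157.0 in tumours 1, 3 and 4. Sars read 1094.3 in tumour 2, against 776.9, 663.9 and 384.9 in the others. With tumour 2 left out, 17 cytosolic genes were higher than in pre-transformed cells and 0 lower, so the rise of the class was present in the other 3 tumours.

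**Figure D5:**
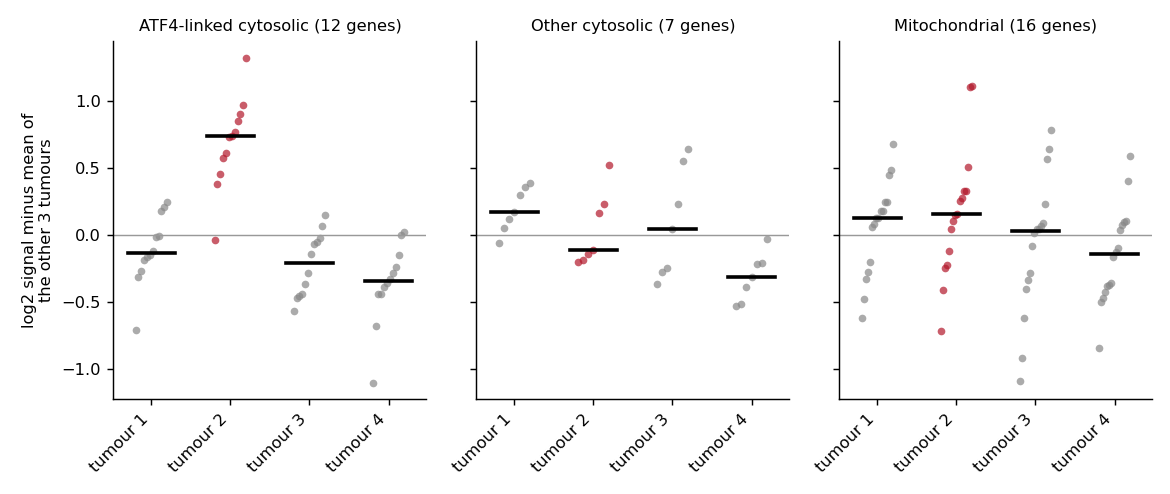
Log2 signal of each synthetase gene in a tumour minus its mean over the other 3 tumours, for ATF4-linked cytosolic, other cytosolic and mitochondrial genes, with bars at the medians. Tumour 2 (red) has a median of 0.74 for the ATF4-linked genes, −0.11 for the other cytosolic genes and 0.15 for the mitochondrial genes.

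Other genes of the amino acid response were also highest in tumour 2, 17 of 21 tested (81.0%). Atf4 itself read 2020.6 in tumour 2, against 875.4, 917.8 and 1173.5 in tumours 1, 3 and 4. Its transcript was not called between tumours and pre-transformed cells, which read 1126.3, 1061.4 and 915.3 (log2 change 0.19, adjusted p = 0.554). Trib3, a feedback target of ATF4, read 121.9 in tumour 2, against 13.1, 19.9 and 28.0 in the others, all of them dim. So for both genes tumour 2 stood alone above the rest. Ddit3, which encodes the stress factor CHOP, read 303.6 in tumour 2, against 64.4, 112.4 and 178.8 in the others, and 251.1, 233.0 and 264.1 in pre-transformed cells. Tumour 2 was above those sorted cells for Ddit3, and the other tumours were below them.

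As a list, the amino acid response had 11 of 21 genes higher in tumours than in pre-transformed cells and 0 lower, against 23.9% and 31.0% of all genes. Asns, for asparagine synthetase, read 280.6, 1669.4, 192.7 and 330.1 in tumours, against 3.7, 0.6 and 4.2 in pre-transformed cells. It was dim in all sorted cells and at least 9.50-fold higher in tumours (adjusted p = 7.14e-05), a bound that takes each dim array at its own 65th percentile. Psat1, an enzyme of serine synthesis, changed by 3.41 and Slc7a5, the large neutral amino acid transporter, by 2.75. Psph, the last enzyme of serine synthesis, was not called (−0.54, adjusted p = 0.152).

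Markers of other cells were counted in the same arrays. Of 13 myeloid markers 4 (30.8%) were higher in tumours than in pre-transformed cells, against 23.9% of all genes. Their summed signal was 4416, 184, 4598 and 4227 in tumours 1 to 4, 196 to 373 in pre-transformed cells and 185 to 239 in controls, with Mpo and Elane dim in all groups. The B cell marker sum was 5629, 254, 5398 and 1779 in tumours, 1790 to 2085 in pre-transformed cells and 2816 to 3064 in controls, with Pax5 dim throughout. Most of this sum was Ighm, at 5140.8, 238.7, 4997.0 and 1138.6 in tumours. In tumour 4, Ms4a1 (269.7), Blnk (193.5) and Cd79a (67.9) read above every sorted array although the sum did not. Cd79b was lower in every tumour than on every sorted array. Tumour 2 therefore had the least signal of both kinds and the most of the ATF4-linked synthetases, and the cytosolic median on that array (1.70 above controls) was the highest of the 4. Its DP marker sum was also the lowest, at 13444 against 14030, 17361 and 16799 in tumours 1, 3 and 4. A link between these values was not tested. Of the tested stromal markers 0 of 6 and of NK and mature T cell markers 0 of 2 were called, and 1 of 1 erythroid marker, Alas2, was higher.

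Promoters of the synthetases were searched for the element that ATF4 binds with C/EBP partners, TGATGCAA on either strand (TTGCATCA when read from the other), and for the E-box CACGTG that Myc binds with Max. RefSeq promoters (GRCm38.p6, 250 bases before to 50 after the start site) were matched for 26 of the 35 genes, 12 cytosolic and 14 mitochondrial. The ATF4 element was found in 4 of 12 cytosolic promoters (Aars, Iars, Tars and Yars) and in 0 of 14 mitochondrial promoters, where 0.895% of 32851 mouse promoters hold it. All 4 belong to the ATF4-linked genes, of which 8 had a promoter. The E-box was found in 4 of 12 cytosolic promoters (Aars, Farsb, Iars and Tars) and in 1 of 14 mitochondrial promoters (Ears2), where 7.15% of all promoters hold it. A match describes the letters in the window and no binding was measured. The 5 cytosolic stretches that hold the matches are shown 5′ to 3′ on the gene's strand, with the matches in capitals, because 4 of these genes rose with the class and the fifth, Aars, stood highest in tumour 2.
Aars (chr8:111033676-111033757, plus strand): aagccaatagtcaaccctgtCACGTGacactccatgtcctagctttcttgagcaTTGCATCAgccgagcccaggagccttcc
Iars (chr13:49682041-49682159, plus strand): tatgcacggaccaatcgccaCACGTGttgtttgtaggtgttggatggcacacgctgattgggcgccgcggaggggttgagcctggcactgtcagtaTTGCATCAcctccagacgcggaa
Tars (chr15:11399629-11399693, minus strand): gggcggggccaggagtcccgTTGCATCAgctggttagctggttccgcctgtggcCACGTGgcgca
Yars (chr4:129189886-129189932, plus strand): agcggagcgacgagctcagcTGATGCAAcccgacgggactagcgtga
Farsb (chr1:78488911-78488956, minus strand): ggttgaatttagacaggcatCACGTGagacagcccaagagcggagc

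In Aars, Iars and Tars the promoter held both motifs. The E-box of Aars begins 146 bases before the start site and the ATF4 element 112 bases before it. In Iars the E-box begins 69 bases before the start and the element at base 8 of the transcript, and in Tars the element begins 15 bases before the start and the E-box at base 20. The element of Yars begins at base 4 of the transcript, and the E-box of Farsb 39 bases before the start. Myc, whose product binds the E-box, read 1205.7, 1486.1, 1722.5 and 1192.2 in tumours, against 116.2, 53.3 and 67.8 in pre-transformed thymocytes (log2 change 4.21, adjusted p = 7.56e-06). Max, for its partner, was lower (log2 change −1.66, adjusted p = 0.0454). It read 195.7, 223.2, 33.9 and 39.3 in tumours, against 292.8, 297.0 and 243.3 in pre-transformed thymocytes. Mycn was dim in all groups and was also called lower. A role of Myc in the synthetase changes was not tested.

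Wars was the ATF4-linked gene that tumour 2 did not lead, and it is also known as a target of interferon. It read 246.6, 217.3, 239.1 and 186.2 in tumours, against 102.3, 103.4 and 128.1 in pre-transformed thymocytes (log2 change 1.00 ± 0.17 SE, adjusted p = 0.000908). A short list of interferon-induced genes, picked with earlier results known, held Gbp2, Gbp6, Gbp8 and Irf1 among the genes tested. Of these 4 of 4 were lower in tumours, where 31.0% of all genes were lower. A part of interferon in the change of Wars was not tested. Irf1, an interferon-induced transcription factor, changed by −1.34 and Gbp2, a guanylate-binding protein gene, by −3.14.

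Genes that act on tRNA before or after charging were followed as further lists. Of 26 genes for tRNA processing and export 16 rose and 3 fell (median log2 change 0.68), against 23.9% and 31.0% of all genes. Xpot, the export receptor for tRNA, read 1006.9, 1313.2, 930.3 and 1008.5 in tumours, against 201.4, 221.2 and 169.5 in pre-transformed cells, a log2 change of 2.43 (adjusted p = 7.56e-06). Trmt6, a subunit of a tRNA methyltransferase, changed by 2.05 and Nsun2, another such enzyme, by 1.65. Of 5 elongation genes 4 rose, Eef1e1 of the scaffold list among them, Eef1b2 by 1.38 and Eef1a1, whose product carries charged tRNA to the ribosome, by 0.64. Of 5 genes listed for editing and deacylation of tRNA 3 rose, with Dtd1, a D-aminoacyl-tRNA deacylase, at 2.26.

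Of 15 genes of mitochondrial translation 6 rose (40.0%) and 4 fell (26.7%), against 23.9% and 31.0% of all genes, with a median log2 change of 0.24. Mrrf, for the ribosome recycling factor, changed by 2.56 and Gfm1, an elongation factor, by 1.22, while the initiation factor gene Mtif3 changed by −1.08 and Mtrf1l, a release factor gene, by −0.87. Qrsl1 and Gatc, for subunits of the complex that makes glutaminyl-tRNA in mitochondria, where no separate glutaminyl enzyme is encoded, rose by 1.19 and 0.63. Of 5 selenocysteine genes 1 was called, Secisbp2, which was lower (−0.82, adjusted p = 0.00174).

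Tumours were also set against controls, which shares the tumour arrays with the comparison above, so that the values are given side by side and not as a repeat. Of 19 cytosolic genes 15 were higher and 0 lower, against 20.5% and 25.2% of all genes, and the median log2 change was 1.27 (all genes −0.08). Farsb changed by 2.45, Iars by 1.90, Cars by 1.86 and Rars by 1.75. Aars (0.97, adjusted p = 0.0531), Eprs (0.57, adjusted p = 0.104), Farsa (0.11, adjusted p = 0.731) and Qars (−0.12, adjusted p = 0.629) were not called. With 2 controls the count rested on each of them: 11 were called without control 1 and 13 without control 2.

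Of 16 mitochondrial genes 2 (12.5%) were higher than in controls and 4 (25.0%) lower, against 20.5% and 25.2% of all genes. The higher genes were Nars2 (1.22, adjusted p = 0.00313) and Rars2 (1.14, adjusted p = 0.00196). The lower genes were Vars2 (−1.45, adjusted p = 0.00254), Cars2 (−1.16, adjusted p = 0.0019), Hars2 (−0.74, adjusted p = 0.0102) and Fars2 (−0.70, adjusted p = 0.0112). Quantile normalization gave 5 higher and 3 lower. Without control 1, or without control 2, Fars2 and Hars2 were no longer called, which left 2 lower. The median of the class was 0.23, and it was −0.16 with median centring. In 15 of the 15 pairs without Mars2 and Ears2 the cytosolic change was the larger. With the mean over all probe sets of a gene 12 of 15 pairs had this order. The pairs led by Farsa, Lars and Yars then did not. Among the 15, the log2 ratio of cytosolic to mitochondrial signal overlapped between tumours and controls for Nars with Nars2 and for Eprs with Pars2. The Ears2 pair was left out after its values were seen, and as measured Eprs (0.57) changed by less than Ears2 in this comparison. Mars (0.91) likewise changed by less than the dim Mars2.

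Pre-transformed cells and controls were compared to ask what the CD4Cre-dependent allele changes in DP cells before transformation. For the synthetases limma called 0 of 35 genes, where 1.11% of all genes were higher and 0.524% lower. Before adjustment, p was under 0.05 for 2 cytosolic genes, which were lower, and for 1 mitochondrial gene, which was higher. The share of all genes with such a p is not given here, so nothing is drawn from this count. Gars read 382.1, 286.1 and 372.1 in pre-transformed cells, against 452.0 and 451.8 in controls (log2 change −0.39 ± 0.14 SE, adjusted p = 0.206). Qars read 590.3, 603.9 and 618.9 in pre-transformed cells, against 775.4 and 715.2 in controls (log2 change −0.30 ± 0.10 SE, adjusted p = 0.164). Aars2 read 117.0, 104.7 and 98.9 in pre-transformed cells, against 68.9 and 90.0 in controls (log2 change 0.44 ± 0.17 SE, adjusted p = 0.243).

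None of these 3 differences passed the threshold, although the groups did not overlap. A lack of overlap does not set these 3 apart. In each class the pre-transformed arrays lay above both controls for 4 genes and below both for 2. The share over all genes is not given here. The medians of the classes were −0.03 for the cytosolic and 0.10 for the mitochondrial genes, beside 0.02 for all genes. Single changes ran from −0.39 to 0.40 in the cytosolic class and, leaving out the dim Mars2 and Ears2, from −0.28 to 0.44 in the mitochondrial class, with standard errors of 0.10 to 0.21 for the 19 cytosolic genes. Farsb, the gene with the largest cytosolic change in tumours, read 214.3, 217.9 and 214.5 in pre-transformed cells, against 197.8 and 252.7 in controls (log2 change −0.05 ± 0.14 SE, adjusted p = 0.878).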

How the data were processed

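RNA of 9 mouse thymus samples was measured on 1 oligonucleotide array each, with 4 tumours, 3 pre-transformed and 2 control samples grouped by the labels. Signal intensity was computed with MAS5 by the authors, per the submitters' processing notes, and deposited as a linear value for each probe set. No source used here names the MAS5 version. Each array's values have a mean of 100 without the lowest and highest 2%. Labels were the only source for the labelling protocols.

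The log2 of each signal was used as it stands, after raising 218 values of 0 to 0.1. Of 45101 probe sets 64 were controls, 34945 named a single gene, 932 several and 9160 none in the annotation table, which can be old and lists Mars as Mars1. A probe set was kept (26421) if 2 or more arrays read it at their median or higher, and each gene was read through its brightest single-symbol set, which gave 11644 genes. The test was limma's (version 3.58.1, R 4.3.3, lmFit, eBayes with trend) with Benjamini-Hochberg adjustment at 0.05. Tumour comparisons used all 9 arrays, and pre-transformed against control the 5 sorted arrays. A fold is written as at least a value where the dimmer group lay under the 65th percentile of its arrays, a rule chosen after seeing the data. The number of arrays limits the precision.

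Every member was named. Members, gene lists and motifs were chosen with earlier results of these data known, so classes are described by counts and medians with no test of the class. Replicate numbers name different mice. Same-numbered samples had correlations of −0.024 to 0.085 between groups, so no pairing was used. Alternatives were 13 settings and 9 fits without 1 array. Promoters were matched by gene ID to RefSeq. Plots used matplotlib 3.10.9 under Python 3.11.15.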

Additional observations from a re-analysis of the deposited data

Results flagged for a closer look

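A sample far from the others of its group was looked for in the 4 tumours, gene by gene over 35 synthetases, as a gap to the nearest tumour divided by the range of the 4. Both genes past Dixon's critical value for 4 samples were mitochondrial. Fars2 was lowest in tumour 2 at 96.3, where the other tumours read 112.1 to 112.9 (gap over range 0.955). Hars2 was lowest in tumour 3 at 85.9, where the others read 107.5 to 109.2 (gap over range 0.935). Chance flags about 1 in 20 groups, and 2 of 35 is close to that. In both genes the low tumour lay further from the pre-transformed cells than the other tumours did.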

How the results depend on the processing

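Over 13 settings and 9 fits that leave out 1 array, 13 to 17 of 19 cytosolic genes were higher in tumours than in pre-transformed cells (16 to 17 with 1 array left out) and 11 to 17 higher than in controls. With the mean of all probe sets of a gene 1 cytosolic gene, Farsa, was lower than in pre-transformed cells and its change turned to −1.29, and Fars2 turned to 0.22. The mitochondrial counts moved more. Higher genes against pre-transformed cells were 7 with quantile normalization, 1 with median centring and 6 with the mean of probe sets, and lower genes were 2 with that mean. Against controls 5 were higher with quantile normalization and 4 with the mean of probe sets. With 1 array left out the lower mitochondrial genes against controls ran from 2 to 4. Causes of these moves were not tested. Median centring moved the median of all genes against pre-transformed cells from −0.12 to −0.38, and the test without a filter on dim signals, over 18193 genes, moved it to 0.28. Relative to that median, the cytosolic class was 0.81 to 1.37 higher and the mitochondrial class −0.06 to 0.55 over the settings. For pre-transformed cells against controls 0 synthetases were called in the 13 settings, but some settings called few genes of any kind. Over all genes tested the main fit called 190, the fit with no trend 1, the fit on all 9 arrays 6 and array weights 431. In the settings with few calls the 0 says little about the synthetases. Replicate numbers share no mouse or batch in the labels. With the replicate block 17 cytosolic genes were higher and 0 lower and 4 mitochondrial genes higher and 4 lower than in pre-transformed cells, and against controls 17, 0, 3 and 4. A common floor of 44.6 for dim signals, chosen after seeing the data, gave 16 and 14 higher cytosolic genes against pre-transformed cells and controls. Signals near the background bound what Mars2 and Ears2 can show.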
